A study of Mus musculus with 16 samples.

Results

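A set of 10 genes of the liver sinusoidal endothelium was followed in RNA sequencing of sorted mouse endothelial cells: the scavenger receptors Stab1 and Stab2, the C-type lectins Mrc1, Clec4g and Cd209b, the hyaluronan receptor Lyve1, the Fc receptor Fcgr2b, the endocytic adaptor Dab2, and the secreted markers Dnase1l3 and Oit3. They were chosen by name as 10 of the 52636 genes in the deposited count table, and 10 of 10 passed the filter on low counts that left 19646 genes to be tested. The animals labelled as knockouts carried a tamoxifen-induced deletion of Erg and Fli1, labelled as a double knockout, and the controls were labelled Wild Type. The labels give tamoxifen as the treatment of all animals, control animals included, and all cells were taken on day 10 after it. They name neither the recombinase nor the promoter that drives it, and give no age of the animals. Liver and lung each had 3 knockout-labelled and 3 control libraries, and heart had 2 of each, 16 libraries in all. Cells had been marked by VE-cadherin antibody given to the living animal and sorted as CD45-negative, CD31-positive, VE-cadherin-positive live cells. Replicates may be technical in part, since the labels do not tie each library to its own animal, so p-values measure the spread between these libraries.

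Liver sinusoidal endothelial cells line the capillaries of the liver lobule with a thin, fenestrated wall that has almost no basement membrane. They are the scavenger endothelium of the body: receptors on their surface bind hyaluronan, collagen fragments, mannose-ended glycoproteins, modified lipoproteins and small immune complexes, which clathrin-coated pits carry to endosomes and lysosomes. Stabilin-1 and stabilin-2 are large scavenger receptors, and stabilin-2 is the main hyaluronan receptor of this endothelium. Erg and Fli1 are transcription factors of the ETS family, which bind DNA at a GGAA core and are active in endothelial cells.

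The start regions of 4 of the genes are shown first because they span the range of responses described below, with Stab2 and Stab1 as a pair of related receptors and Clec4g and Cd209b as lectin genes on chromosome 8. Each line gives the 250 bases before the RefSeq transcription start (build GRCm38.p6), written 5′ to 3′ on the gene's own strand, which is the minus strand for all 4. Capitals mark every GGAA or its reverse complement TTCC. The windows lie at chr10:87007943-87008192 (Stab2), chr14:31168642-31168891 (Stab1), chr8:3720652-3720901 (Clec4g) and chr8:3926842-3927091 (Cd209b).
Stab2: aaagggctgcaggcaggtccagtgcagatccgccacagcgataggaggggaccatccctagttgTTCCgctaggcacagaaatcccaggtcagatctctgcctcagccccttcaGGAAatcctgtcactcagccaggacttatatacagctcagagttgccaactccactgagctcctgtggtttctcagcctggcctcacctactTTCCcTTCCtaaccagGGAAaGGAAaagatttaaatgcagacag
Stab1: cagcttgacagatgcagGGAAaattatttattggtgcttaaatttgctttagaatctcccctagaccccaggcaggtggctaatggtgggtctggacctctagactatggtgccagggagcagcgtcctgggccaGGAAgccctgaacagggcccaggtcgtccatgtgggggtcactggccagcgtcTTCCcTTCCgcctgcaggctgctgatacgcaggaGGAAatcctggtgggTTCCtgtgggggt
Clec4g: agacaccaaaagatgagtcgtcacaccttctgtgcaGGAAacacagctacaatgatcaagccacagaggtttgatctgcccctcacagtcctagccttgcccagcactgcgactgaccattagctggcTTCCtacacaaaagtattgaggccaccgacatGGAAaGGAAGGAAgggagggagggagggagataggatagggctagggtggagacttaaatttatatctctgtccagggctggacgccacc
Cd209b: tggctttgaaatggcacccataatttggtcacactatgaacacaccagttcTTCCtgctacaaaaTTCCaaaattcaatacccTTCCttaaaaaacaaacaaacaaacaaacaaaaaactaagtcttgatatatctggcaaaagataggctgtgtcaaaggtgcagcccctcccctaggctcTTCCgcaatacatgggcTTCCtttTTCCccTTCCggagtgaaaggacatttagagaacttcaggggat

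GGAA, counted on both strands, stood 6 times in the Stab2 window, 6 times in that of Stab1, 5 times in that of Clec4g and 7 times in that of Cd209b. Among 32851 windows of the same length, 93.4% held at least 1 GGAA, so the presence of the core by itself separates few promoters. The median was 3 and the upper quartile 4, and the 4 printed windows lay above that quartile. The longer form CCGGAA, which contains GGAA, stood once in the Cd209b window and in none of the other 3, against 12.03% of all windows. AGATAA, a form of the motif read by GATA factors, was absent from the 4 windows and present in 9.99% of all. Other forms were not counted, though AGATAG can be read in the Clec4g and Cd209b windows. Stab2, whose change in knockout-labelled liver was not called, thus held 6 GGAA, and Cd209b, which fell most there, held 7. The part of these motifs in the levels was not tested. Of the 10 genes, 7 had a RefSeq entry; Fcgr2b held 4 GGAA, Mrc1 6, and the 2 starts of Dab2 held 3 and 5. Lyve1, Dnase1l3 and Oit3 are named only.

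All 10 are protein-coding genes, placed here by GENCODE M21 on GRCm38. Fcgr2b lies on chromosome 1 (170958617 to 170976547, minus strand), Mrc1 on chromosome 2 (14229392 to 14332057, plus strand) and Lyve1 on chromosome 7 (110850607 to 110863239, minus strand). Clec4g (3707064 to 3720651) and Cd209b (3917655 to 3926844) lie on the minus strand of chromosome 8. Oit3 (59422958 to 59441778) and Stab2 (86841198 to 87008025) lie on the minus strand of chromosome 10, and the GENCODE start of Stab2 falls inside the window printed above. Dnase1l3 (7964533 to 7994573) and Stab1 (31139013 to 31168641) lie on the minus strand of chromosome 14, and Dab2 lies on chromosome 15 (6299788 to 6440712, plus strand).

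Depth was 30226340 to 41449054 counts per library, and libraries of 1 group correlated at r = 0.976 to 0.994 on log2(CPM + 1). The 2 lowest correlations, 0.976 and 0.981, both involved knockout-labelled liver 3. Levels are in CPM, with TMM-adjusted library sizes as denominators. Erg counts fell in liver, to 165, 136 and 131 CPM in the knockout-labelled libraries against 361, 337 and 371 CPM in the controls (edgeR, log2 −1.31, SE 0.132, adjusted p = 1.54e-05). Counts of Fli1 did not fall in liver, with 144, 125 and 187 CPM in the knockout-labelled libraries against 123, 113 and 114 CPM in the controls (log2 0.38, SE 0.153, adjusted p = 0.1). In lung Erg fell less (log2 −0.52, adjusted p = 0.023) and Fli1 was called higher (log2 0.69, adjusted p = 0.0131). In heart neither Erg (log2 −0.47, adjusted p = 0.0538) nor Fli1 (log2 0.02, adjusted p = 0.978) passed. Counts over a whole gene do not show which exons were removed, and groups are therefore called by their labels. The endothelial genes Cdh5, Pecam1, Kdr, Tie1 and Egfl7 were read in every library and summed to 7965 to 10719 CPM in knockout-labelled liver against 10874 to 12238 CPM in control liver. In sorted pools, fewer cells of a type and less RNA per cell cannot be told apart.

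The 10 genes were chosen as genes of liver sinusoidal endothelium, so a higher level in control liver describes that choice. In control animals the set was a liver set with 1 exception. Control liver was higher than control lung for 9 of the 10 genes (22.4% of all genes tested were called higher in that comparison) and higher than control heart for 10 of 10 (23.9% of all genes). The exception was Lyve1, which is also a marker of lymphatic vessels: it averaged 827 ± 175 CPM in control liver and 1184 ± 229 CPM in control lung (SD, n = 3 each; log2 −0.52, adjusted p = 0.533). Stab2 averaged 4741 ± 239 CPM in control liver, against 0.387 ± 0.126 CPM in control lung. Stab1 was shared more widely, with 5808 ± 431 CPM in control liver, 581 ± 66.9 CPM in control lung and 621 ± 49.7 CPM in control heart. Dab2 was shared too, at 779 ± 10.7 CPM in control liver against 48.7 ± 2.86 CPM in control lung and 178 ± 34.4 CPM in control heart. Heart controls held no count of Cd209b, so that control liver, at 25.8 ± 3.09 CPM, was at least 607-fold higher than a floor of 3 counts over the group.

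**Figure D1:**
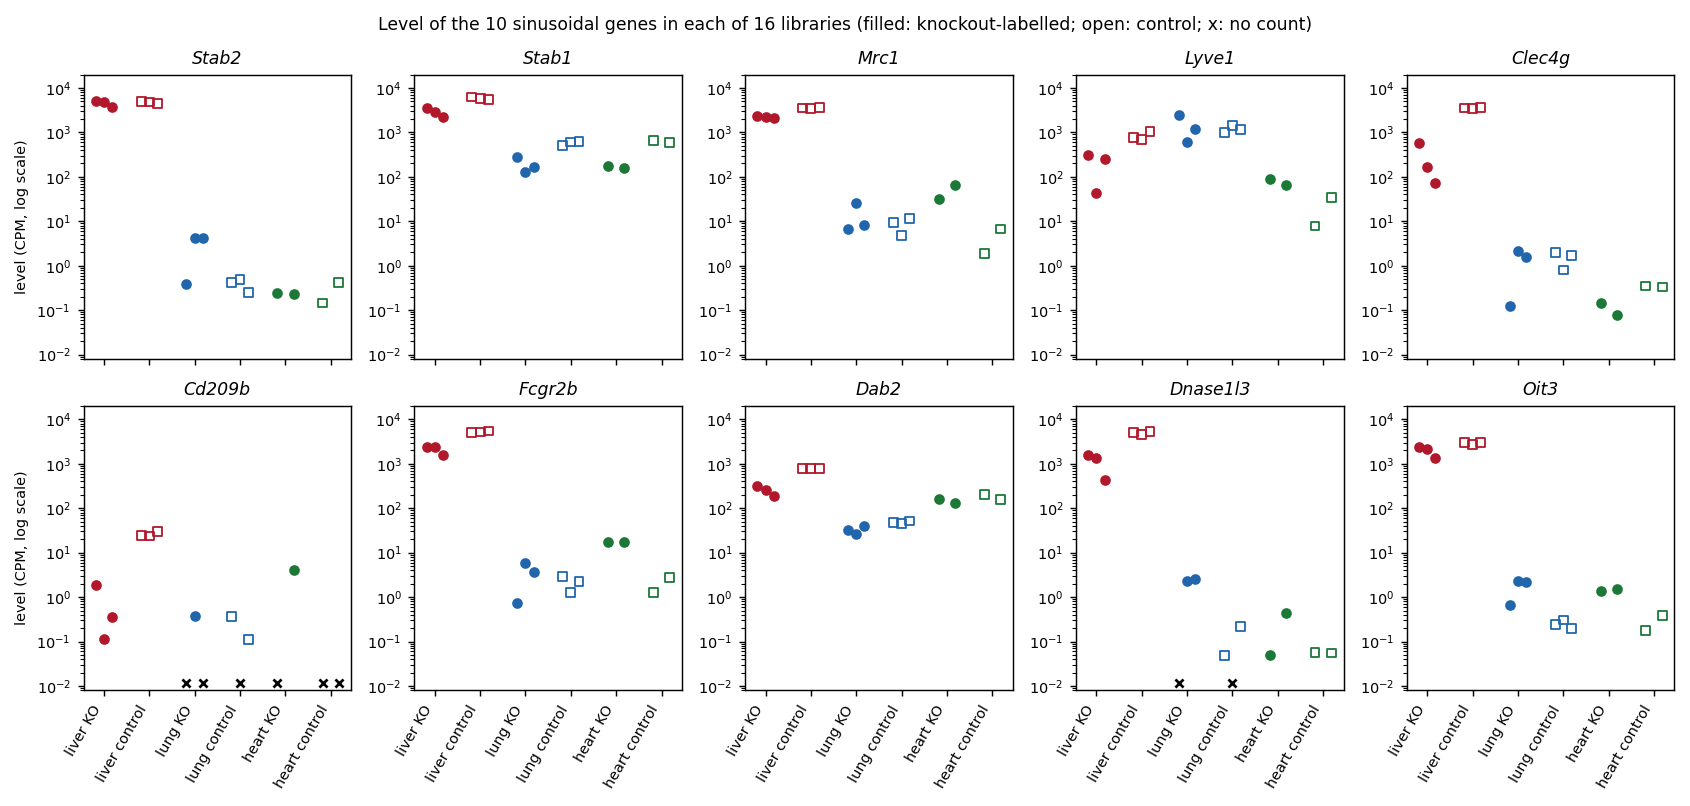
Level of each gene in each library, in CPM on a log scale, with knockout-labelled libraries as filled points to the left of the open control points of the same tissue and crosses where no count was read. For 9 genes the highest points are in liver, while Lyve1 points of lung and liver controls overlap. In liver the filled points of Stab2 lie above, within and below the control range (3664 to 5048 CPM against 4470 to 4921 CPM), and those of Clec4g and Cd209b lie far below.

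Knockout-labelled liver had 12.8-fold less of the lectin Clec4g, 33.3-fold less of the lectin Cd209b, and 2.04-fold to 4.10-fold less Stab1, Dab2 and Lyve1. The calls for Cd209b and Lyve1 were lost in some alternative fits, as given below. Stab2 had a mean of 4541 ± 763 CPM there against 4741 ± 239 CPM in control liver (SD, n = 3 each), a difference that was not called. Of the 10 genes, 5 fell, 0 rose (0 also by DESeq2 and at an unadjusted p under 0.05) and 5 did not pass the test, where 9.87% of all genes tested fell, 9.54% rose and 19.4% changed in either direction. The median log2 change of the 10 genes was −1.45, against 0.02 for all genes tested. Every knockout-labelled library lay below every control for 9 of the 10 genes, which holds for 19% of all genes tested. The 10 genes together took 1.85%, 1.63% and 1.18% of counts in knockout-labelled liver, against 3.28%, 3.15% and 3.28% in control liver.

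Stab2, the hyaluronan-clearing scavenger receptor, had 5048, 4911 and 3664 CPM in knockout-labelled liver, against 4921, 4833 and 4470 CPM in control liver. The groups overlapped, with knockout-labelled liver 1 above the control range, 2 within it and 3 below it. The log2 change was −0.06 (SE 0.482, adjusted p = 0.961), with a 95% interval of −1.10 to 0.97, so that a change of about 2-fold either way lies within it. Fitted on the liver libraries alone, the change was −0.04 with an SE of 0.203.

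Stab1, its relative, had 3523, 2809 and 2203 CPM in knockout-labelled liver, against 6248, 5789 and 5388 CPM in control liver. No knockout-labelled library reached the control range, and the fall was 2.04-fold (log2 −1.03, SE 0.251, adjusted p = 0.0105). Per kilobase of exon, Stab2 over Stab1 was 1.68, 2.05 and 1.95 in knockout-labelled liver, against 0.925, 0.981 and 0.9747 in control liver. The pair was thus near equal in control liver and Stab2 led in each knockout-labelled library.

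Among the lectins, Clec4g, which encodes LSECtin, had 588, 165 and 72.4 CPM in knockout-labelled liver, against 3539, 3371 and 3628 CPM in control liver. Even the highest knockout-labelled library was far below the controls, and the fall was 12.8-fold (log2 −3.68, SE 0.723, adjusted p = 0.00266). Cd209b, the mouse lectin SIGN-R1, was the least expressed of the set and had 1.87, 0.116 and 0.351 CPM in knockout-labelled liver, against 24.4, 23.7 and 29.3 CPM in control liver. It fell 33.3-fold (log2 −5.06, SE 1.37, adjusted p = 0.0205), on 73 counts in all 3 knockout-labelled libraries against 2586 in the controls. The call for Cd209b was lost with DESeq2 (adjusted p = 0.0821) and without control 3, knockout-labelled 2 or knockout-labelled 3 (adjusted p up to 0.0572). Mrc1, the mannose receptor, behaved otherwise: it had 2300, 2257 and 2108 CPM in knockout-labelled liver, against 3544, 3518 and 3599 CPM in control liver. The groups were far apart for their narrow spread, yet the fit over all 16 libraries did not call it (log2 −0.68, SE 0.503, adjusted p = 0.385). Fitted on the liver libraries alone, Mrc1 was called lower (log2 −0.65, SE 0.153, adjusted p = 0.0268).

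Lyve1 had 307, 42.8 and 256 CPM in knockout-labelled liver, against 769, 688 and 1024 CPM in control liver. It fell 4.10-fold (log2 −2.03, SE 0.658, adjusted p = 0.0438), and knockout-labelled liver 2 was far below the other two. That call was fragile: it was lost in the liver-only fit (adjusted p = 0.0693) and on leaving out any 1 control or knockout-labelled 2 or 3 (adjusted p up to 0.118). Dab2, which links receptors of the LDL receptor family to clathrin, had 321, 258 and 189 CPM in knockout-labelled liver, against 788, 782 and 768 CPM in control liver. Its fall of 3.05-fold had the smallest error of the set (log2 −1.61, SE 0.188, adjusted p = 5.08e-05). Fcgr2b, the inhibitory IgG receptor through which these cells take up small immune complexes, had 2397, 2398 and 1565 CPM in knockout-labelled liver, against 4949, 5197 and 5451 CPM in control liver. The groups did not overlap, and Fcgr2b missed the threshold in the fit over all libraries (log2 −1.29, SE 0.473, adjusted p = 0.0721) and passed it in the liver-only fit (adjusted p = 0.0101) and with DESeq2 (adjusted p = 0.0267).

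Of the secreted markers, Dnase1l3, a nuclease that digests chromatin in blood, had 1610, 1385 and 440 CPM in knockout-labelled liver, against 5072, 4647 and 5442 CPM in control liver. Every knockout-labelled library was far below the controls, with knockout-labelled 3 lowest. The change just missed the threshold in the fit over all libraries (log2 −2.14, SE 0.731, adjusted p = 0.0555) and passed it in the liver-only fit (adjusted p = 0.0202). Oit3, a zona pellucida domain protein of liver endothelium, had 2362, 2102 and 1352 CPM in knockout-labelled liver, against 2951, 2685 and 2965 CPM in control liver. The groups did not overlap, and Oit3 did not pass the test in either fit (log2 −0.56, SE 0.308, adjusted p = 0.228; liver only, adjusted p = 0.142). Dnase1l3 over Oit3 per kilobase was 0.369, 0.357 and 0.176 in knockout-labelled liver, against 0.930, 0.937 and 0.993 in control liver. In the liver-only fit 7 of the 10 genes were called lower, with Mrc1, Fcgr2b and Dnase1l3 added and Lyve1 lost.

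Read library by library, the residual levels of the 10 genes ran from under 1% to over 100% of the control mean over the 3 pools of sorted cells. In knockout-labelled liver 1 the 10 genes stood at 7.25% (Cd209b) to 106% (Stab2) of the liver control mean, with a median of 43.6%. In knockout-labelled liver 2 they stood at 0.450% (Cd209b) to 104% (Stab2), with a median of 39.6%. Knockout-labelled liver 3 ran from 1.36% (Cd209b) to 77.3% (Stab2), with a median of 30.5%. Library 3 was lowest for 8 genes and library 2 for the other two, Lyve1 and Cd209b, while library 1 was highest for 9. Erg counts followed the same order, highest in library 1 and lowest in library 3, and their part in the residual levels was not tested.

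The 3 libraries lay closer together for some genes than for others, which is given as a description with no test. Mrc1 was the most even, at 64.7%, 63.5% and 59.3% of the control mean in knockout-labelled liver 1, 2 and 3. Cd209b differed 16.1-fold between its highest and lowest library, on 58, 4 and 11 counts, so that counting error enters that ratio. Clec4g differed 8.12-fold (16.7%, 4.68% and 2.06%) and Lyve1 7.17-fold (37.1%, 5.18% and 31.0%). Dnase1l3 differed 3.66-fold (31.9%, 27.4% and 8.71%), and the other 6 genes, Mrc1 among them, by 1.75-fold or less. Lyve1 and Cd209b stood higher in library 3 than in library 2, and the other 8 genes lower. Library 3 was also the one with more RNA of lymphatic endothelial markers: Mmrn1, Reln, Prox1 and Pdpn together had 11.1, 8.93 and 109 CPM in knockout-labelled liver 1, 2 and 3, against 19.7, 9.77 and 19.3 CPM in control liver. Their part in the Lyve1 level of library 3 was not tested. Without library 3 the log2 change of Lyve1 was −2.24, with an adjusted p of 0.0681 by edgeR.

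**Figure D2:**
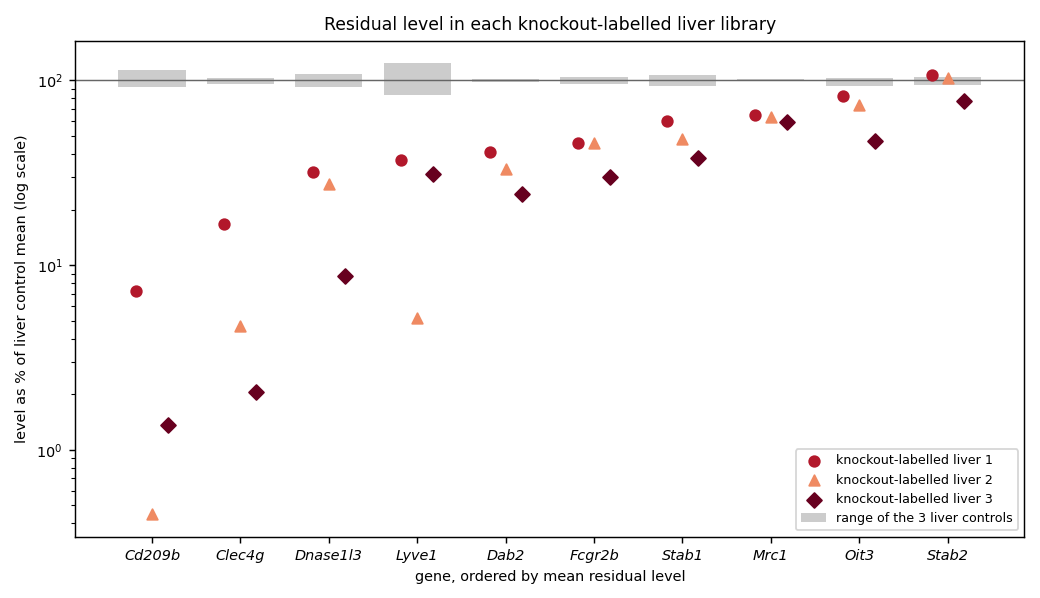
Level of each gene in the 3 knockout-labelled liver libraries as a percent of the mean of the 3 liver controls, on a log scale, with the control range in grey. Genes run from Cd209b, with 7.25% at most, to Stab2, with 77.3% at least, and the diamonds of library 3 are lowest for 8 of the 10 genes.

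Scaled to exon length, the order of the 10 genes in liver was rearranged. In control liver Clec4g came first at 1427 CPM per kilobase, above Oit3 (1028), Dnase1l3 (981) and Fcgr2b (898), then Stab1 (565), Mrc1 (558) and Stab2 (541), then Lyve1 (283), Dab2 (106) and Cd209b (12.2). Library ranges of Oit3, Dnase1l3 and Fcgr2b overlapped from neighbour to neighbour, as did those of Stab1, Mrc1 and Stab2, and the other neighbours were apart. In knockout-labelled liver Oit3 came first at 695 CPM per kilobase and Stab2 second at 519, followed by Fcgr2b (366), Mrc1 (349), Stab1 (277), Dnase1l3 (222), Clec4g (112), Lyve1 (69.1), Dab2 (34.8) and Cd209b (0.368). There the ranges were apart only between Stab2 and Fcgr2b and between Dab2 and Cd209b. Stab2 over Clec4g per kilobase was 2.41, 8.39 and 14.2 in knockout-labelled liver, against 0.391, 0.403 and 0.346 in control liver, so the ratio turned over in every library.

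**Figure D3:**
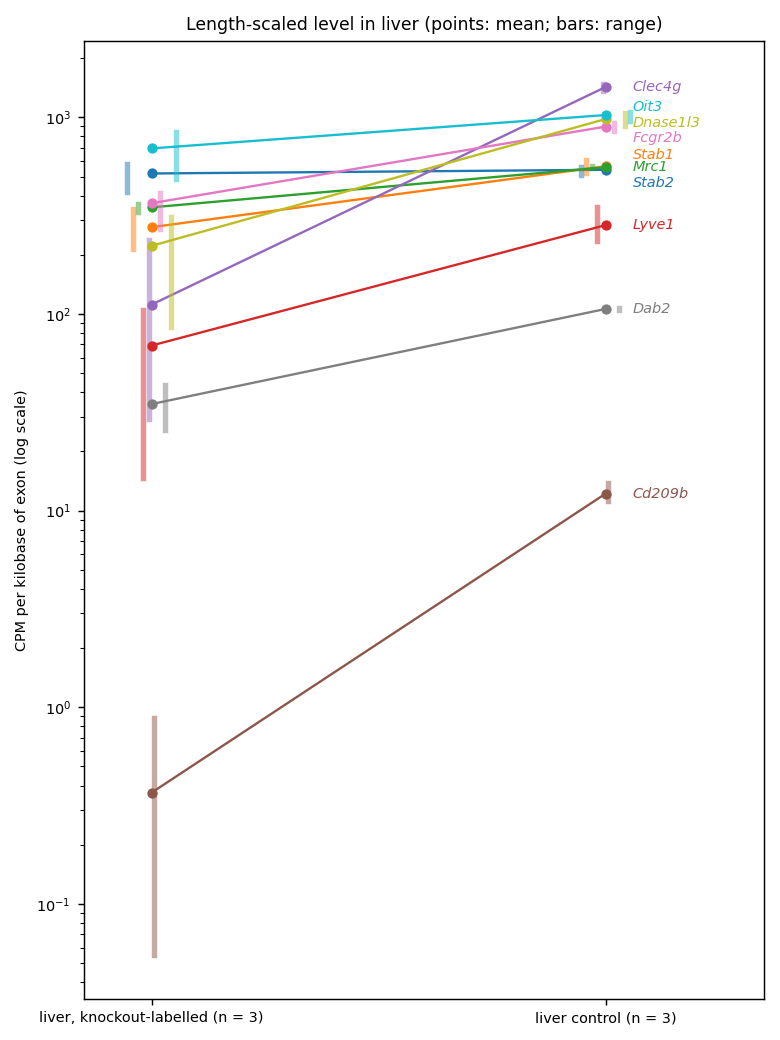
Level of each gene in liver in CPM per kilobase of exon, on a log scale, with knockout-labelled libraries at left and controls at right; points are means and thick bars the range of 3 libraries. Clec4g crosses the other lines, at 112 in knockout-labelled liver against 1427 in control liver, while the line of Stab2 is nearly level. Range bars are shifted sideways so that they can be told apart.

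Set against the other tissues, the residual in knockout-labelled liver stayed above control lung and control heart for most of the genes. Knockout-labelled liver was higher than control lung for 8 genes (22.6% of all genes were called higher), lower for Lyve1 (23.3% were called lower), and Cd209b did not pass. Against control heart 8 genes were higher (23.4% of all genes), and Cd209b and Dab2 did not pass. These comparisons share knockout-labelled liver libraries, so they are not independent. Clec4g, after its 12.8-fold fall, averaged 275 ± 275 CPM in knockout-labelled liver, against 1.505 ± 0.627 CPM in control lung (log2 7.50, SE 0.886, adjusted p = 1.08e-05). Dnase1l3 averaged 1145 ± 621 CPM in knockout-labelled liver, against 0.0905 ± 0.117 CPM in control lung. Stab1 kept a lead of 4.90-fold over control lung (log2 2.29, SE 0.261, adjusted p = 7.64e-06) and of 4.58-fold over control heart.

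The exceptions were Lyve1, Dab2 and Cd209b, each against 1 tissue or both. Lyve1, at 202 ± 140 CPM in knockout-labelled liver, was 5.87-fold below control lung at 1184 ± 229 CPM (log2 −2.55, SE 0.670, adjusted p = 0.00649). Dab2, at 256 ± 66.0 CPM in knockout-labelled liver, was 1.43-fold above control heart at 178 ± 34.4 CPM (log2 0.52, SE 0.208, adjusted p = 0.0561; 95% interval of the fold 1.05 to 1.95), and their libraries overlapped. Cd209b, at 0.779 ± 0.952 CPM in knockout-labelled liver, overlapped with control lung at 0.158 ± 0.186 CPM (log2 2.21, SE 1.51, adjusted p = 0.254). That mean was carried by knockout-labelled liver 1, at 1.87 CPM, against 0.116 and 0.351 CPM in the other two. Heart controls held no count of Cd209b.

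In lung, knockout-labelled libraries lost Stab1 and gained small amounts of Oit3 and Stab2. Of the 10 genes 2 rose, 1 fell and 7 did not pass, where 8.46% of all genes changed, 4.35% up and 4.11% down. Stab1 had 280.3, 130.3 and 162 CPM in knockout-labelled lung, against 505, 605 and 632 CPM in control lung (log2 −1.60, SE 0.255, adjusted p = 0.00164). Oit3 had 0.679, 2.33 and 2.15 CPM in knockout-labelled lung, against 0.242, 0.305 and 0.195 CPM in control lung (log2 2.76, SE 0.456, adjusted p = 0.00206). For both genes the groups were apart, though Oit3 stayed far under its liver level.

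Stab2 had 0.388, 4.17 and 4.29 CPM in knockout-labelled lung, against 0.412, 0.499 and 0.251 CPM in control lung (log2 2.90, SE 0.644, adjusted p = 0.0127). Knockout-labelled lung 1 lay among the controls, so the rise rested on the other two libraries, and the call was lost in the lung-only fit (adjusted p = 0.0559) and without control 1 or 3 (adjusted p up to 0.0640). Dnase1l3 followed the same libraries, with 0, 2.36 and 2.56 CPM in knockout-labelled lung, against 0.0484, 0 and 0.223 CPM in control lung (log2 4.13, SE 1.24, adjusted p = 0.0555), and passed without knockout-labelled lung 1 (adjusted p = 0.00403). Counts behind these values were low, with 16, 136 and 146 counts of Stab2 in knockout-labelled lung 1, 2 and 3. Knockout-labelled lung 1 was also the library with the highest Lyve1, which had 2402, 615 and 1210 CPM in knockout-labelled lung, against 976, 1429 and 1146 CPM in control lung (log2 0.25, SE 0.633, adjusted p = 0.866). The lymphatic markers Mmrn1, Reln, Prox1 and Pdpn together had 7.52, 5.43 and 18.9 CPM in knockout-labelled lung, against 7.58, 9.37 and 8.73 CPM in control lung. That sum was not high in library 1, though Prox1 alone rose, to 3.54, 1.69 and 4.12 CPM in knockout-labelled lung, against 0.581, 0.693 and 0.613 CPM in control lung (log2 2.30, adjusted p = 0.0176). Hepatocyte markers, 10 genes from albumin to hepcidin, summed to 13.8, 16.1 and 44.6 CPM in knockout-labelled lung 1, 2 and 3 against 40.6 to 53.8 CPM in control lung. Of the 10, 1 fell and 0 rose (1 rose at an unadjusted p under 0.05, 0 by DESeq2). Ass1 was the gene that fell, to 12.1 ± 2.56 CPM in knockout-labelled lung from 44.8 ± 6.74 CPM in control lung, where it made most of the sum. The median log2 change of the 10 was 0.93, against −0.02 for all genes tested. Their part in the lung levels of Stab2, Oit3 and Dnase1l3 was not tested.

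In heart, Mrc1, Fcgr2b and Oit3 rose and Stab1 fell in the knockout-labelled libraries, and 6 genes did not pass, where 19.3% of all genes changed, 10.2% up and 9.09% down. Mrc1 had 32.4 and 67.0 CPM in knockout-labelled heart, against 1.89 and 6.68 CPM in control heart (log2 3.53, SE 0.694, adjusted p = 0.00329). Fcgr2b had 17.3 and 17.5 CPM in knockout-labelled heart, against 1.28 and 2.77 CPM in control heart (log2 3.10, SE 0.650, adjusted p = 0.00500). Oit3 had 1.39 and 1.54 CPM in knockout-labelled heart, against 0.174 and 0.388 CPM in control heart (log2 2.36, SE 0.554, adjusted p = 0.00962). In these 3 genes and Lyve1 both knockout-labelled libraries exceeded both controls, which holds for 30% of all genes tested, and without control 1 the calls for Fcgr2b (adjusted p = 0.0626) and Oit3 (adjusted p = 0.0924) were lost. Stab1 had 174 and 159 CPM in knockout-labelled heart, against 656 and 586 CPM in control heart (log2 −1.90, SE 0.315, adjusted p = 0.00114). Lyve1 had 91.4 and 66.2 CPM in knockout-labelled heart, against 7.84 and 35.0 CPM in control heart, and did not pass (log2 1.88, SE 0.807, adjusted p = 0.122). Cd209b had 0 and 4.15 CPM in knockout-labelled heart, against no count in control heart, so the signal of 162 counts came from 1 library.

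Mrc1, Fcgr2b, Lyve1, Stab1 and Cd209b are also made by macrophages of some tissues. A list of 15 macrophage and Kupffer cell markers summed to 291 and 517 CPM in knockout-labelled heart, against 55.8 and 108 CPM in control heart, and the higher of both knockout-labelled sums was in the library with more Mrc1. Of the 15, 5 rose in heart (Cd68, Timd4, Marco, Fcgr1 and Lyz2, named after their values were seen) and 0 fell, with a median log2 change of 3.07; DESeq2 called 10 higher and 0 lower, and 12 were higher and 0 lower at an unadjusted p under 0.05. Between 3 and 5 of the 15 had no count in a heart control, and 0 or 1 in a knockout-labelled heart library. Their part in the rise of Mrc1 and Fcgr2b was not tested. In liver the same list summed to 293 to 634 CPM in knockout-labelled libraries against 392 to 1151 CPM in controls, and 0 of 15 passed in either direction by edgeR, by DESeq2 or at an unadjusted p under 0.05. In lung it summed to 104 to 273 CPM in knockout-labelled libraries against 499.9 to 591.5 CPM in controls, 1 of 15 fell and 0 rose (2 rose by DESeq2, 3 at an unadjusted p under 0.05), and the median log2 change was 0.20. The gene that fell was Lyz2, with 91.5, 164 and 44.9 CPM in knockout-labelled lung, against 432, 534 and 452 CPM in control lung. The other 14 summed to 59.3 to 109 CPM in knockout-labelled lung against 57.6 to 89.8 CPM in control lung, and those ranges overlapped.

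Stab1 was the only one of the 10 genes called in the same direction in all 3 tissues, with log2 changes of −1.03 in liver, −1.60 in lung and −1.90 in heart. The difference of its change between liver and lung did not pass (difference 0.58, SE 0.352, adjusted p = 0.408; 95% interval −0.18 to 1.33) and neither did that between liver and heart (difference 0.87, SE 0.394, adjusted p = 0.199; 95% interval 0.02 to 1.72). For 4 genes the change in liver was lower than that in lung by a test of the difference: Oit3, Dnase1l3, Dab2 and Stab2, where 3.13% of all genes tested were called in that direction. Against heart the change in liver was lower for 6 genes, Lyve1, Oit3, Dab2, Mrc1, Cd209b and Fcgr2b, where 4.62% of all genes were. Oit3 was thus in both sets, with a change of −0.56 that did not pass in liver and called rises over very low control levels in lung and heart.

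**Figure D4:**
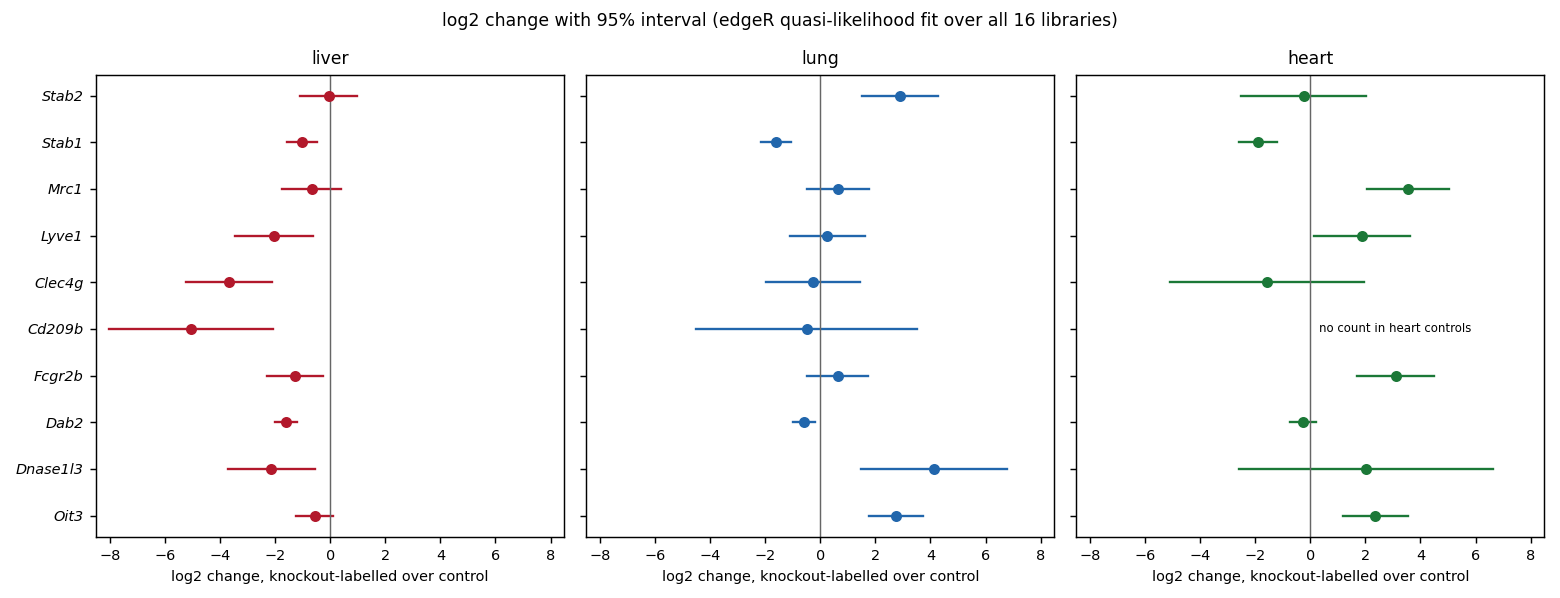
log2 change of knockout-labelled over control libraries with its 95% interval for the 10 genes in liver, lung and heart. Stab1 lies left of 0 in all 3 panels, Mrc1 and Fcgr2b lie right of 0 in heart (3.53 and 3.10), and Stab2 sits at −0.06 in liver; Cd209b is left out of the heart panel, where controls had no count.

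The counts of the gene lists that follow stand beside the shares of all genes tested, of which 9.87% fell and 9.54% rose in liver, 4.11% fell and 4.35% rose in lung, and 9.09% fell and 10.2% rose in heart. Of 30 other genes of sinusoidal endothelium, 13 fell and 2 rose in liver, with a median log2 change of −0.84 (0.02 for all genes tested). Kit, a receptor tyrosine kinase, averaged 137 ± 77.2 CPM in knockout-labelled liver and 778 ± 148 CPM in control liver (SD, n = 3 each; log2 −2.51, adjusted p = 0.000225). Ntn4, a laminin-related netrin (log2 −1.83, adjusted p = 0.00141), and Gpr182, an atypical chemokine receptor (log2 −1.35, adjusted p = 0.00248), fell as well. Clec1b, a C-type lectin, rose to 444 ± 13.4 CPM in knockout-labelled liver, against 252 ± 46.7 CPM in control liver (log2 0.82, adjusted p = 0.00293). In lung 1 of the 30 fell and 2 rose (2 and 5 by DESeq2), and in heart 0 fell and 8 rose (3 fell and 9 rose by DESeq2, 4 and 11 at an unadjusted p under 0.05).

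Of 28 other uptake receptors, 7 (25%) fell and 5 (17.9%) rose in liver, against 9.87% and 9.54% of all genes, with a median log2 change of −0.22. Scarf1, a scavenger receptor of endothelium, averaged 174 ± 22.8 CPM in knockout-labelled liver and 356 ± 12.9 CPM in control liver (log2 −1.04, adjusted p = 9.76e-06). Its relative Scarf2 went the other way, at 56.4 ± 7.43 CPM in knockout-labelled liver and 8.75 ± 2.36 CPM in control liver (log2 2.69, adjusted p = 1.97e-06). Cxcl16, a membrane chemokine that also binds oxidised lipoprotein, fell (log2 −1.55, adjusted p = 1.37e-05), and the transferrin receptor Tfrc rose (log2 1.74, adjusted p = 0.00234). In lung 4 of the 28 fell and 0 rose (0 rose by DESeq2, 1 at an unadjusted p under 0.05), and in heart 2 fell and 7 rose.

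Of 35 genes of clathrin endocytosis, 7 (20%) fell and 4 (11.4%) rose in liver, with a median log2 change of −0.04, and the share that rose was near the 9.54% of all genes. The clathrin light chain Clta (log2 −0.96, adjusted p = 0.000326), the endocytic motor Myo6 (log2 −0.95, adjusted p = 0.000828) and the adaptor subunit Ap2a2 (log2 −1.03, adjusted p = 0.000914) fell. In lung 2 of the 35 fell and 4 rose, and in heart 5 fell and 0 rose (2 rose by DESeq2, 4 at an unadjusted p under 0.05).

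Downstream of uptake, 10 of 28 lysosomal genes (35.7%) fell and 3 (10.7%) rose in liver, against 9.87% and 9.54% of all genes, with a median log2 change of −0.37. The mannosidase Man2b1 averaged 277 ± 41.5 CPM in knockout-labelled liver and 758 ± 78.7 CPM in control liver (log2 −1.45, adjusted p = 8.18e-06). The hexosaminidase subunit Hexa (log2 −1.06, adjusted p = 0.000843) and the protease Ctsd (log2 −1.41, adjusted p = 0.000258) fell too. In lung 0 of the 28 fell (2 by DESeq2, 3 at an unadjusted p under 0.05) and 3 rose, and in heart 2 fell and 5 rose.

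Of 13 measured hyaluronan genes, 3 fell and 2 rose in liver. Hyal2, a hyaluronidase, averaged 149 ± 32.4 CPM in knockout-labelled liver and 548 ± 32.4 CPM in control liver (log2 −1.88, adjusted p = 5.75e-05), and Cemip2, also a hyaluronidase, fell by 0.81 on the log2 scale (adjusted p = 0.0141). Tnfaip6 (log2 4.14, adjusted p = 0.0103) and the proteoglycan Vcan (log2 2.12, adjusted p = 0.0271), both hyaluronan binders, were called higher over control levels under 1 CPM. Tnfaip6 stayed low, at 0.766 ± 0.660 CPM in knockout-labelled liver, and its groups overlapped. In lung 1 of the 13 fell and 2 rose, and in heart 2 fell and 3 rose.

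Of 9 other Fc receptor genes, 1 fell and 0 rose in liver (0 rose by DESeq2 or at an unadjusted p under 0.05): Fcgrt, the neonatal Fc receptor that recycles IgG, averaged 609 ± 171 CPM in knockout-labelled liver and 1369 ± 94.5 CPM in control liver (log2 −1.17, adjusted p = 0.00641). In lung 0 of the 9 passed by edgeR or DESeq2, and 2 were lower at an unadjusted p under 0.05. In heart 4 rose and 0 fell (1 fell by DESeq2), namely Fcgr1, Fcgr3, Fcgr4 and Fcer1g, which are receptors or a signalling chain of myeloid cells (named after their values were seen). Of 5 tested deoxyribonuclease genes other than Dnase1l3, the lysosomal Dnase2a (log2 −1.32, adjusted p = 0.00104) and Dnase1l1 (log2 −0.47, adjusted p = 0.0181) fell in liver and the mitochondrial Endog rose (log2 0.80, adjusted p = 0.0407); 1 fell in lung and 1 in heart. Of 15 tested C-type lectin relatives of Cd209b and Clec4g, Clec2d fell in liver (log2 −1.47, adjusted p = 0.000411) and Clec9a (log2 1.03, adjusted p = 0.00143) and Clec4e (log2 3.40, adjusted p = 0.00865) rose; 1 fell and 0 rose in lung (0 rose by DESeq2, 1 at an unadjusted p under 0.05), and 1 fell and 4 rose in heart.

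Markers of other cells in liver moved less evenly. The 10 hepatocyte markers summed to 796 to 984 CPM in knockout-labelled liver against 790 to 2775 CPM in control liver, with 3 called lower (Apoa2, Ttr and Serpina1c) and 1 higher (Ass1). Stellate cell markers, 8 genes, summed to 227 to 416 CPM in knockout-labelled liver against 146 to 183 CPM in control liver, with 2 called higher, Colec11 and Ecm1. Most of both sums was Ecm1, at 267 ± 66.7 CPM in knockout-labelled liver and 136 ± 12.8 CPM in control liver. Ecm1 was also read in control lung (196 ± 46.1 CPM) and control heart (103 ± 7.82 CPM), so it did not mark stellate cells alone. Reln is in this list and in the lymphatic list below. Leukocyte markers, of which 7 were tested, summed to 100.3, 28.4 and 8.36 CPM in knockout-labelled liver 1, 2 and 3 against 12.04 to 19.1 CPM in control liver. S100a8 and S100a9 were called higher, at 12.4 ± 15.9 and 22.3 ± 27.9 CPM in knockout-labelled liver, with an SD above the mean in both. Lymphatic markers, 5 genes beside Lyve1, summed to 1068 to 2017 CPM in knockout-labelled liver against 2969 to 3633 CPM in control liver, mostly from Flt4, which sinusoidal endothelium also makes and which fell (log2 −1.18, adjusted p = 0.00710). The median log2 change of the 5 was 1.07, and Prox1, Pdpn, Mmrn1 and Reln did not pass. These 4 stood apart in knockout-labelled liver 3 alone, with 41.7 CPM of Mmrn1 there against 3.17 to 9.20 CPM in control liver, 39.4 CPM of Reln against 1.53 to 3.14 CPM, 25.7 CPM of Prox1 against 4.80 to 8.60 CPM and 2.01 CPM of Pdpn against 0.272 to 0.712 CPM. The part of these lists in the levels of the 10 genes was not tested.

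Across the 16 libraries the 10 genes shared 1 profile apart from Lyve1. Pearson r of each gene with the mean profile of the set, on log2(CPM + 1), was 0.810 (Cd209b) to 0.992 (Clec4g) for 9 genes and 0.182 for Lyve1. That mean profile includes the gene itself, which raises r. The most alike pair was Stab2 and Oit3 (r = 0.996), followed by Dnase1l3 and Oit3 (r = 0.992) and Mrc1 and Fcgr2b (r = 0.992). Libraries of 1 tissue share most of this variation, so these values describe tissue level before anything else. The genes outside the set most like its mean profile were Fcrlb (r = 0.988), Ppfia2 (r = 0.988), Slc43a2 (r = 0.987), Ush1g (r = 0.987), Fabp1 (r = 0.987) and Wnt2 (r = 0.987). Wnt2, a signalling ligand of sinusoidal endothelium, averaged 78.6 ± 45.4 CPM in knockout-labelled liver and 263 ± 43.3 CPM in control liver (log2 −1.74, adjusted p = 0.00315).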

How the data were processed

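Values are raw read counts per gene as deposited by the authors, from poly(A) libraries of sorted endothelial cells. Per the submitters' processing notes, FastQC 0.11.5 and STAR 2.7.6a were used with GRCm38. No source used here states how reads were counted or whether strand was used, so exons shared with genes on the other strand (Stab1 112 bp with Nt5dc2, Stab2 141 bp, Clec4g 146 bp, Fcgr2b 155 bp, Dab2 211 bp) and close paralogs (Fcgr2b, Cd209b) are uncertain. Intervals and floors cover counting or model error only, and PCR copies are not told apart. One edgeR 4.0.16 quasi-likelihood fit (R 4.3.3, TMM, filterByExpr with a minimum count of 10 and a minimum total of 15) covered 19646 genes, 16 libraries and 6 group means, with Benjamini-Hochberg adjustment per comparison at 0.05. In that fit the 6 groups shared 1 estimate of spread per gene. Its p-values and intervals for liver therefore also take in spread between lung and heart libraries. The script was tested on simulated data. Alternatives were DESeq2 1.42.0, other scaling, no filter, only the groups compared, replicate blocks and leaving out each library. Exon lengths are unions from GENCODE M21. A floor is 3 counts over a group.

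The 10 genes and all lists were chosen with earlier results of these data known. All 10 are named. From each list up to 4 genes with the smallest adjusted p in liver that pass 0.05 are named, and as most alike the 6 genes over 10 CPM in liver controls with the highest r, predicted genes left out. Lists are described by counts and medians, with no set test. Some genes that the naming rule picks are not reported here.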

Additional observations from a re-analysis of the deposited data

Results flagged for a closer look

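A total of 10 differences between tissues in the change of knockout-labelled over control libraries passed the edgeR test of the difference itself. Each value is the log2 change of knockout-labelled over control in liver minus that in the other tissue. Erg counts differed by the same test, by −0.78 against lung (adjusted p = 0.0214) and by −0.84 against heart (adjusted p = 0.0226). The part of this unequal Erg change in the 10 differences was not tested.

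Against lung, Oit3 differed by −3.33 (SE 0.553, adjusted p = 0.00289), with changes of −0.56 in liver and 2.76 in lung. Dnase1l3 differed by −6.27 (SE 1.42, adjusted p = 0.0180), with changes of −2.14 in liver and 4.13 in lung, neither of which passed alone. Dab2 differed by −1.03 (SE 0.261, adjusted p = 0.0319), with changes of −1.61 in liver and −0.58 in lung. Stab2 differed by −2.96 (SE 0.808, adjusted p = 0.0445), with changes of −0.06 in liver and 2.90 in lung, and the rise in lung rested on 2 of 3 libraries.

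Against heart, Fcgr2b differed by −4.40 (SE 0.802, adjusted p = 0.00470), with changes of −1.29 in liver and 3.10 in heart. Mrc1 differed by −4.21 (SE 0.845, adjusted p = 0.00813), with changes of −0.68 in liver and 3.53 in heart. Oit3 differed by −2.92 (SE 0.635, adjusted p = 0.0124) and Dab2 by −1.34 (SE 0.291, adjusted p = 0.0126). Lyve1 differed by −3.91 (SE 1.046, adjusted p = 0.0338), with changes of −2.03 in liver and 1.88 in heart. Cd209b differed by −14.26 (SE 3.25, adjusted p = 0.0176), a fitted value that depends on the prior count because heart controls had no count, so its size is no bound. The summed macrophage markers were higher in knockout-labelled than in control heart (291 and 517 against 55.8 and 108 CPM), and their part in these differences was not tested.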

How the results depend on the processing

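Counts of called genes among the 10 stayed within 1.5 times under DESeq2, other scaling, no filter and separate fits, except in lung, where DESeq2 called 5 (3 by edgeR). Over all genes DESeq2 called 2514 in lung (1662 by edgeR), 2072 for liver minus lung (1219) and 2673 for liver minus heart (1635). Leaving out 1 library at a time gave 3 to 5 of the 10 called in liver, 2 to 5 in heart, 1 to 5 for liver minus lung and 2 to 6 for liver minus heart. Over all genes it gave 917 to 1479 in lung, 807 to 1269 for liver minus lung, 1793 to 2944 in heart and 711 to 1777 for liver minus heart.

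Signs turned in 9 log2 values on leaving out 1 library, given here as ranges. Stab2 in liver ran from −0.14 to 0.071, positive without knockout-labelled 3, and was 0.048 on raw library totals. In lung Lyve1 ran from −0.37 to 0.61, Clec4g from −0.88 to 0.32, Cd209b from −5.58 to 1.0 and Mrc1 from −0.24 to 0.99. In heart Stab2 ran from −0.79 to 0.70 and Dnase1l3 from −0.20 to 2.89. Cd209b for liver minus lung ran from −6.28 to 0.53 and Stab2 for liver minus heart from −0.76 to 0.73. None of these passed the test with all libraries, and the causes were not tested.

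Replicate numbers were not taken to pair the libraries. By title number, same-number deviations correlated at −0.0797 to 0.240 within a tissue, over 0.1 in 2 of 8 pairs. Across tissues they correlated at −0.00642 to 0.148, over 0.1 in 7 of 28. Heart control 2 has the number 3 in its description. By description number, pairs across tissues correlated at 9.14e-05 to 0.148, over 0.1 in 8 of 28. Pairs of unlike number were not read for comparison, so these values do not settle whether a number marks a shared animal. With a replicate block 5 genes were called in liver and 3 for liver minus lung, where Stab2 was lost. Depth limits Cd209b in every group but control liver, and Stab2, Clec4g, Dnase1l3 and Oit3 in lung and heart.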
